A study of Mus musculus with 6 samples.

Results

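Neutrophil primary (azurophil) granule genes were followed in the leukemia cells of a mouse model of blast crisis chronic myeloid leukemia (bcCML). The set holds 7 of the 36083 genes in the expression table and was chosen by name, with earlier results of these data known, and found by matching Ensembl gene IDs to mouse symbols. The rule itself uses no expression value. The genes are Mpo, Elane, Prtn3, Ctsg, Prss57, Ms4a3 and Ctsc. Stem and progenitor cells (KLS) of WT or Sdc1-/- donors on the B6 background were infected with retroviruses carrying BCR-ABL and NUP98-HOXA9, so the controls carry both fusion genes too. Cells positive for both oncogenes were passed into recipients labelled NSG, a strain that lacks lymphocytes but keeps myeloid cells of its own. The study's general methods instead name irradiated mice of a B6 strain for primary bcCML transplants, so the recipient strain is not settled. The leukemic cells were taken from the spleen as the lineage-negative (Lin-) fraction when both cohorts were killed together. The study's gate for primary bcCML cells required the surface markers of both retroviral vectors, NGFR and CD2, before the lineage-negative step. The lineage antibodies it lists include those against CD11b and Gr1, surface proteins of maturing myeloid cells. RNA from each genotype gave 3 libraries. The study gives ages only as ranges for all its mice, which differ between its methods and its reporting summary. No label says that the libraries of a genotype come from separate mice. A supplementary legend of the study gives its RNA-seq of Lin- WT bcCML as 3 technical replicates. Every p-value below therefore measures the spread between these libraries, which may be technical.

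Azurophil granules are the first granules that a developing neutrophil makes. Their contents are transcribed at the promyelocyte stage, and transcription of most of these genes stops before the specific granules form, so the mRNAs are widely used as a signature of granulocyte-monocyte progenitors and promyelocytes. Mpo encodes myeloperoxidase, a heme enzyme that makes hypochlorous acid from hydrogen peroxide and chloride. Elane (neutrophil elastase), Prtn3 (proteinase 3), Ctsg (cathepsin G) and Prss57 (neutrophil serine protease NSP4) are the granule serine proteases, and Ctsc encodes the dipeptidyl peptidase that removes their propeptides and so activates them. Ms4a3 is a membrane protein with 4 transmembrane segments that is widely used to mark granulocyte-monocyte progenitors. It is called a granule gene below only as a member of the set.

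The genes lie at 5 places in the genome (GENCODE M21 on GRCm38, the same assembly as the mm10 build in the submitters' notes), and all 7 are protein coding. Prss57 (ENSMUSG00000020323, chr10:79781474-79790961, minus strand), Prtn3 (ENSMUSG00000057729, chr10:79874476-79883174, plus strand) and Elane (ENSMUSG00000020125, chr10:79886247-79888215, plus strand) share a stretch of chromosome 10. Mpo (ENSMUSG00000009350) is at chr11:87793581-87804413 on the plus strand and Ctsg (ENSMUSG00000040314) at chr14:56099881-56102574 on the minus strand. Ms4a3 (ENSMUSG00000024681) is at chr19:11629496-11640851 on the minus strand and Ctsc (ENSMUSG00000030560) at chr7:88278085-88310888 on the plus strand.

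The promoters of the 7 genes were searched for the core letters of factors known for granulocytic transcription. This search was made after the expression values had been seen. Promoter windows of 300 bases around the RefSeq start (GRCm38.p6) were at hand for 6 of the 7 genes, and Prss57 was not among them. The letters GGAAGT, a core that ETS factors such as PU.1 can bind, were present on one strand or the other in 6 of 6 windows, against 23.8% of the 32851 RefSeq promoter windows of the same length. One match from each gene is printed 5′ to 3′ along the gene's own strand, with the matching letters in capitals (in Ctsc the match is on the opposite strand and reads ACTTCC).
Mpo, chr11:87793550-87793579: tggagagagagaGGAAGTtgcctttgtccc
Elane, chr10:79886217-79886246: gtgtcccagggaGGAAGTagggctgtggcc
Prtn3, chr10:79879562-79879591: aaactggaaggaGGAAGTgggacccacagc
Ctsg, chr14:56102762-56102791: agaggaagaaaaGGAAGTagtcacctgttt
Ms4a3, chr19:11640889-11640918: tggtatacttggGGAAGTgggtgggccatt
Ctsc, chr7:88277922-88277951: tgtcactaactaACTTCCtcaggccacctc

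Each of these matches lies upstream of the RefSeq start, nearest in Ms4a3 (position -55) and farthest in Mpo (position -222). Elane and Prtn3 also held AACGG, the core of the MYB site, at positions -50 and -55, and these letters were present in 17.4% of all windows. In GENCODE M21 both AACGG windows overlap the 5′ UTR in an exon of the gene's own transcripts, and the GGAAGT window of Prtn3 lies in an intron. The other 5 GGAAGT windows lie outside annotated genes.
Elane, chr10:79886250-79886279: atggggcaatacAACGGcctctggttccag
Prtn3, chr10:79879600-79879629: tagccactgttcAACGGctcccggcagagc

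The same pair of windows held TATAA on the gene's strand at positions -31 (Elane) and -32 (Prtn3). Ctsg held it at position -236 on the opposite strand, and 24.9% of all windows held it on either strand. The CEBP core TTGCNNAA was present in Ms4a3 alone among the 6 genes (10.8% of all windows). The shorter CEBP letters GCAAT were in Elane, Mpo and Ms4a3 (26.4% of all windows), in Ms4a3 overlapping the core. The RUNX core TGTGGT was present in Ctsg alone (16.8% of all windows). All matches were sought on both strands and are matches of letters only, with no measurement of binding. A role of these factors in the expression differences given further on was not tested.

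The libraries were prepared with a stranded mRNA kit from 150 ng of RNA and read as single reads of 75 bases. The deposited values are TPM, which are per transcript length and so allow levels to be compared between genes, but they had been rescaled between libraries, and their sums ran from 944973 to 1058263. Sequencing depth is therefore not known. The targeted gene, Sdc1, had values of 1.75, 1.21 and 1.51 in the WT libraries and of 3.85, 3.80 and 4.12 in the libraries labelled Sdc1-/-. Its mRNA was therefore higher where the label says Sdc1-/- (log2 difference 0.99, adjusted p = 1.2e-04 from limma), and the group is called by its label throughout. These values are low, not far above the mean of 1 required for testing. In the paper, the knockout allele disrupts the signaling peptide, so that mature Sdc1 does not reach the cell surface. Its authors checked the deletion by PCR and immunofluorescence. Whether that allele changes the mRNA level was not tested. The Y-linked genes Eif2s3y, Ddx3y, Kdm5d and Uty lay between 0 and 0.249 in the WT libraries and between 6.26 and 49.8 in the libraries labelled Sdc1-/-, so the sex of the cells and the genotype cannot be told apart in any comparison below.

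All 7 granule genes were expressed in every library. Ms4a3 was the highest, at 445 ± 11.7 in WT (SD, n = 3 libraries), ranking between 319 and 327 among all genes. Mpo followed, and then came Ctsg and Elane, whose libraries overlapped in both groups and whose order is therefore not settled. Prtn3, Ctsc and Prss57 came next, each separated from its neighbour in the order in every library. Ctsc, the activating enzyme, ranked 1394 to 1537, and Prss57 was the lowest, at 41.8 ± 1.97 in WT (SD, n = 3), ranking 2905 to 3083. The order by mean level was the same in the libraries labelled Sdc1-/-.

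The comparison of the 2 labelled genotypes was meant to ask how loss of Sdc1, a surface heparan sulfate proteoglycan, goes with gene expression. The Sdc1 mRNA values given above do not show that loss, and whether the labels match the genotypes was not tested. All 7 granule genes fell in the libraries labelled Sdc1-/-, by 17.1% to 44.8% of the WT mean, and in none of them did the groups overlap. Among 12155 genes whose mean was 1 or more, 31.3% fell and 29.3% rose at an adjusted p under 0.05 (limma on log2(value + 1), two-sided, Benjamini-Hochberg over all genes tested), and in 34.2% all 3 libraries labelled Sdc1-/- lay below all 3 WT libraries. The median log2 difference of the 7 genes was -0.65, against -0.0097 over all genes tested. In bulk RNA, fewer cells of a type and less RNA per cell cannot be told apart.

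Mpo stood at 334, 312 and 320.2 in the WT libraries and at 249.7, 244 and 242 in the libraries labelled Sdc1-/-. The lowest WT library thus exceeded the highest of the other group. The log2 difference was -0.39 (SE 0.034, adjusted p = 8.4e-05 from limma), a mean 23.8% lower and, after Prss57, the smallest fall of the set. Of the 31-base words in the transcripts of Mpo, 12.1% also occur in transcripts of other genes, mostly Gm11505.

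Among the serine proteases, Elane stood at 288, 262 and 283 in WT against 171, 165 and 175 in those labelled Sdc1-/-. Its log2 difference was -0.70 (SE 0.044, adjusted p = 1.8e-05 from limma). Prtn3, the next gene on the chromosome, stood at 245, 206 and 230.2 in WT and at 146, 143 and 145 in the other group. WT replicate 2 was the lowest WT library for both genes, and the spread of Prtn3 was wider in WT (SD 19.4, n = 3) than in the libraries labelled Sdc1-/- (SD 1.45, n = 3). The log2 difference of Prtn3 was -0.65 (SE 0.060, adjusted p = 1.1e-04 from limma). Ctsg stood at 293, 278 and 284 in WT against 187, 187 and 173 in those labelled Sdc1-/-, with a log2 difference of -0.64 (SE 0.041, adjusted p = 2.1e-05 from limma). These 3 proteases, which lie on 2 chromosomes, lost between 36.0% and 38.6% of their WT means.

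Prss57 encodes a protease with an elastase-like fold that cuts after arginine. It stood at 44.0, 40.1 and 41.4 in WT against 34.7, 36.2 and 33.1 in those labelled Sdc1-/-, and only 3.93 units separated the lowest WT library from the highest of the other group. The log2 difference of -0.26 (SE 0.049, adjusted p = 0.0030 from limma) was the smallest of the set. With library sums made equal at 1000000 it was -0.12 and no longer passed the threshold (adjusted p = 0.057 from limma). Of the 31-base words in the transcripts of Prss57, 39.3% also occur in transcripts of the adjoining gene Fstl3, whose mean was 1.10 in WT, so some of its reads could have been divided between both genes.

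Ctsc, the activator of these proteases, fell the most. Its values were 91.6, 103 and 93.2 in WT against 52.2, 55.2 and 51.4 in those labelled Sdc1-/-, and WT replicate 2 was here the highest library. The log2 difference was -0.84 (SE 0.052, adjusted p = 1.8e-05 from limma), a mean 44.8% lower. Ms4a3, the membrane protein, stood at 452, 452 and 432 in WT against 266, 280.1 and 269 in those labelled Sdc1-/-. Its log2 difference was -0.71 (SE 0.034, adjusted p = 6.5e-06 from limma), and its gap between the groups, 152 units, was the widest of the set.

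**Figure D1:**
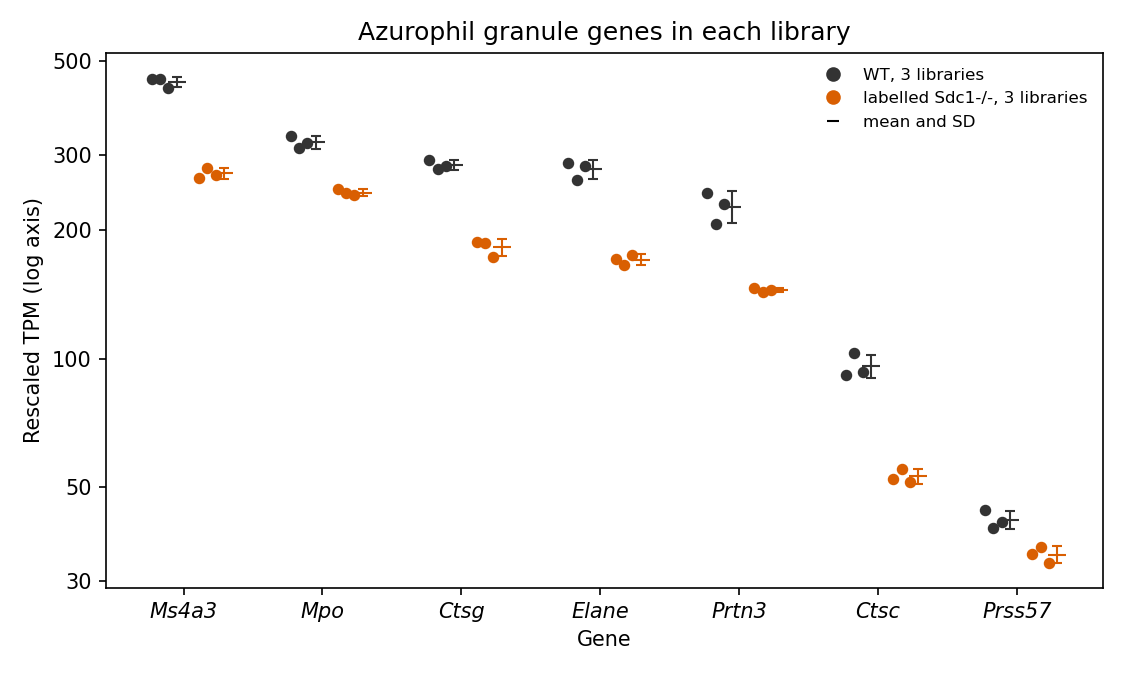
Rescaled TPM (log axis) of the 7 azurophil granule genes in each of 3 WT libraries (dark) and 3 libraries labelled Sdc1-/- (orange), with the mean and SD of each group beside the points. In each gene the 3 orange points lie below the 3 dark ones, and the gap is narrowest for Prss57.

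The scaling between libraries matters for the size of these differences. With library sums made equal at 1000000, 19.6% of all tested genes fell and 43.5% rose, so that lower genes made up 31.0% of the calls instead of 51.7%, and the median of all genes moved from -0.0097 to 0.12. The log2 difference of Mpo was then -0.24 and that of Ctsc -0.70, and 6 of the 7 genes still fell (limma, adjusted p under 0.05), all but Prss57. Relative to the median of all genes, the difference of Prss57 was -0.25 with the deposited scaling and -0.24 with equal sums. The summed level of the 7 genes was 1694 ± 47.9 in WT against 1102 ± 12.3 in the other group (SD, n = 3 each), or 0.161% and 0.116% of all expression in a library.

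**Figure D2:**
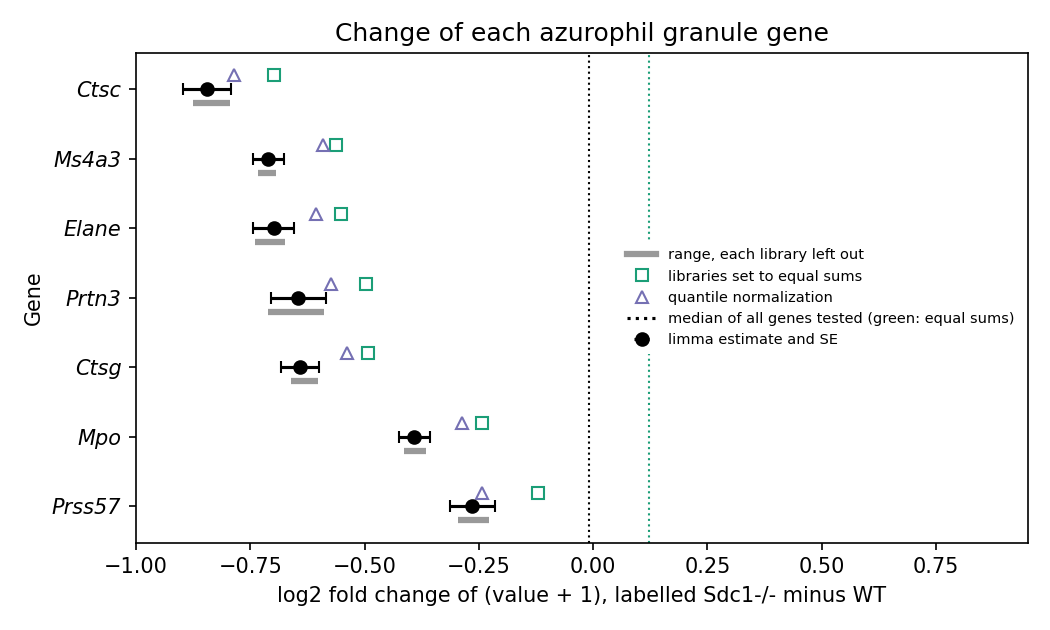
Log2 difference (libraries labelled Sdc1-/- minus WT) of each granule gene, with limma's estimate and standard error (black), the range when each library was left out in turn (grey bar), equal library sums (green square) and quantile normalization (purple triangle). Estimates run from -0.84 for Ctsc to -0.26 for Prss57, and the dotted lines mark the median of all tested genes, -0.0097 as deposited and 0.12 with equal sums.

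The log2 differences ran from -0.84 for Ctsc to -0.26 for Prss57. Apart from the 1 added to each value, the ratio between 2 genes of the same library does not depend on the scaling, and all 21 pairs were compared by the exact permutation test, two-sided, in which 3 against 3 libraries cannot give a p below 0.1 (0.162 after Benjamini-Hochberg adjustment over the 21 pairs). In 13 pairs the libraries of the 2 groups did not overlap, and 11 of these 13 pairs held Mpo or Prss57, which is every pair with either gene. How often pairs of other genes separate in these libraries was not computed. The log2 ratio of Mpo to Elane was 0.31 ± 0.036 higher in the libraries labelled Sdc1-/- (difference of means ± SE, n = 3 per group) and that of Mpo to Ctsc 0.45 ± 0.085 higher. The widest difference was that of Prss57 to Ctsc, 0.58 ± 0.087. Elane, Prtn3, Ctsg and Ms4a3 kept closer ratios: Prtn3 to Ctsg differed by -0.0039 ± 0.065, Elane to Prtn3 by -0.054 ± 0.038 and Elane to Ms4a3 by 0.011 ± 0.069, with overlapping groups in each. As a share of the summed level of the 7 genes, Mpo went from 19.0% in WT to 22.2% in the libraries labelled Sdc1-/-, and Ctsc from 5.67% to 4.80%.

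**Figure D3:**
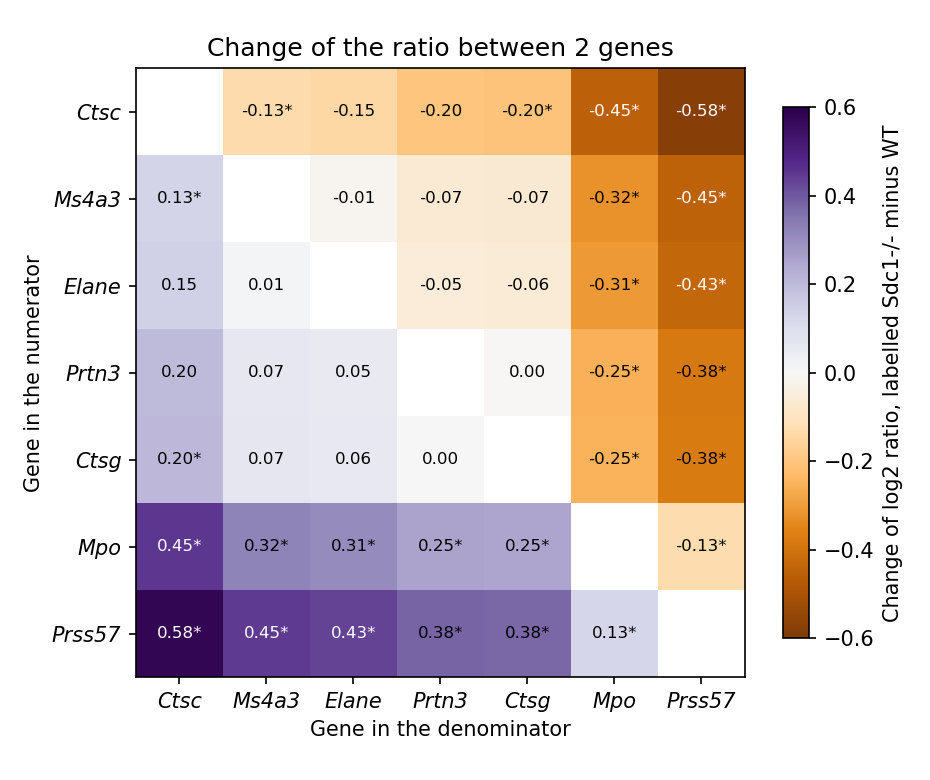
Change of the log2 ratio of the row gene to the column gene, libraries labelled Sdc1-/- minus WT (n = 3 each). An asterisk marks the 13 pairs whose libraries did not overlap between groups, and the rows of Mpo and Prss57 are positive against Ctsc, Ms4a3, Elane, Prtn3 and Ctsg.

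For each granule gene the nearest 2 protein-coding genes on either side were taken from RefSeq. Among those tested outside the set, more fell than rose. Tspoap1 and Rnf126 alone rose at an adjusted p under 0.05 (limma), and Ptbp1, Mks1 and Tmem135 did not pass. Over all genes tested, 31.3% fell and 29.3% rose. Plppr3, next to Prtn3, fell (log2 difference -0.41, adjusted p = 0.0087 from limma), but at a mean of 3.68 in WT it was far below Prtn3, with which it shares 7.48% of the 31-base words of Prtn3. Cfd, on the other side of Elane, was near 0 in every library, while Med16 fell by 0.32 on the log2 scale (adjusted p = 0.0010 from limma) and Ptbp1 had a difference of -0.12 that did not pass (adjusted p = 0.058 from limma). Around Prss57, Palm fell by 0.37 and Rnf126 rose by 0.17 on the log2 scale (adjusted p = 4.2e-04 and 0.012 from limma).

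Beside Mpo, the related peroxidase gene Lpo was listed at 0 in every library, and Tspoap1 rose from a mean of 1.80 to 4.92 (log2 difference 1.08, adjusted p = 1.0e-05 from limma) while Mpo fell. Supt4a, also near Mpo, had a small log2 difference of -0.096 (adjusted p = 0.023 from limma). Mcpt8, a basophil protease gene next to Ctsg, fell from 145 ± 3.19 to 54.4 ± 0.73 (SD, n = 3; log2 difference -1.39, adjusted p = 5.4e-07 from limma). The neighbours of Ctsg on the other side, Gzme and Gzmd, had means below 1. Ms4a2, the beta chain of the high-affinity IgE receptor and a neighbour of Ms4a3, fell from 74.7 ± 3.37 to 23.0 ± 1.95 (SD, n = 3; log2 difference -1.66, adjusted p = 3.1e-06 from limma). Ms4a6d and Oosp1, also near Ms4a3, had low WT means of 2.43 and 2.15. Their log2 differences were -0.99 and -0.67 (adjusted p = 0.0030 and 0.0056 from limma). Rab38, downstream of Ctsc and known for lysosome-related organelles, fell by 0.56 on the log2 scale (adjusted p = 7.7e-06 from limma).

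**Figure D4:**
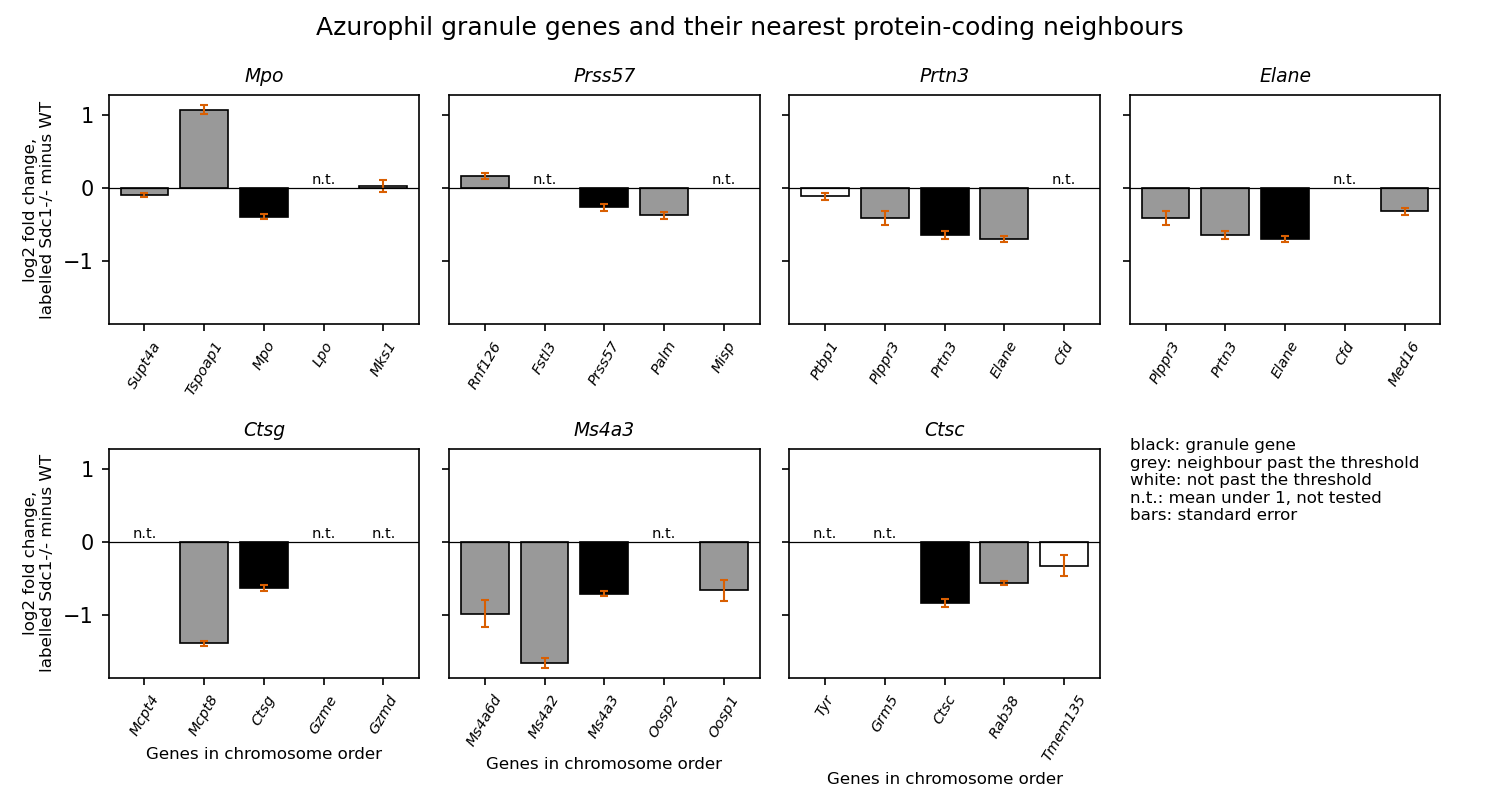
Log2 difference (libraries labelled Sdc1-/- minus WT) with standard error for each granule gene (black) and its nearest 2 protein-coding genes on either side in chromosome order (grey past the threshold, white not). Tspoap1 beside Mpo rose by 1.08 on the log2 scale, while Mcpt8 beside Ctsg and Ms4a2 beside Ms4a3 had differences of -1.39 and -1.66, and n.t. marks genes with a mean under 1 that were not tested.

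Other contents of azurophil granules fell with the proteases. Of 20 listed genes 17 were tested, 15 fell, 0 rose and 2 (Hexa and Arsa) did not pass, with a median log2 difference of -0.57 against -0.0097 over all genes. Srgn encodes serglycin, the proteoglycan that holds the proteases in the granule, and was the most abundant at 2089 ± 38.1 in WT against 1331 ± 27.2 in the other group (SD, n = 3 each; log2 difference -0.65, adjusted p = 6.2e-06 from limma). The largest falls were those of Cd68, a lysosomal membrane protein (-1.43, adjusted p = 3.4e-06 from limma), and Lyz2, lysozyme (-0.89, adjusted p = 1.2e-06 from limma). Of the 31-base words of Lyz2 32.8% also occur in Lyz1, which had means below 1.

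Inhibitors of the granule proteases and of cathepsin C also fell. Of 18 listed genes 14 were tested, of which 13 fell and 1 rose (Serpinb9, mean 3.20 in WT), with a median of -0.73. Serpina3g, a serpin that inhibits cysteine cathepsins, was the highest of these genes at 2312 ± 9.53 in WT against 1410.5 ± 26.2 in the other group (SD, n = 3 each; log2 difference -0.71, adjusted p = 3.1e-06 from limma), and 28.4% of its 31-base words occur in other genes, mostly other Serpina3 members. Wfdc21 had a log2 difference of -1.72 and Stfa2, a stefin, of -1.64 (adjusted p = 2.0e-06 and 1.8e-06 from limma). Other genes, mostly Stfa2l1, hold 33.3% of the 31-base words of Stfa2. Serpinb1a, which blocks elastase, proteinase 3 and cathepsin G, fell from 492 ± 8.14 to 305 ± 7.03 (SD, n = 3; log2 difference -0.69, adjusted p = 4.3e-06 from limma).

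The transcription factors known for control of these genes moved in both directions. Of 20 listed, 16 were tested, 9 fell, 5 rose and 2 (Runx1 and Cbfb) did not pass, with a median of -0.14. Cebpe, needed for later granules, fell by 1.03 and Cebpa, needed for the step to granulocyte-monocyte progenitors, by 0.91 on the log2 scale (adjusted p = 2.0e-05 and 1.1e-05 from limma). Spi1, which encodes PU.1, fell from 111 ± 2.35 to 59.4 ± 5.66 (SD, n = 3; log2 difference -0.90, adjusted p = 3.8e-05 from limma). Myb, whose product is known to activate the Elane and Mpo genes, rose from 70.4 ± 1.25 to 91.0 ± 3.88 (SD, n = 3; log2 difference 0.37, adjusted p = 2.1e-04 from limma). Meis1, a stem cell factor, rose by 1.07 and Myc, the most abundant factor of the list, by 0.18 on the log2 scale (adjusted p = 3.2e-06 and 0.0037 from limma). Without WT replicate 3 or without Sdc1 KO replicate 1, 3 of these genes rose instead of 5. The part of these factors in the granule gene differences was not tested.

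Genes for processing and sorting of granule proteins, those of congenital neutropenia included, were also mixed. All 25 were tested, 13 fell, 7 rose and 5 did not pass, with a median of -0.12, and with equal library sums 8 fell and 11 rose. Furin, a proprotein convertase, fell from 68.5 ± 6.74 to 31.1 ± 2.39 (SD, n = 3; log2 difference -1.11, adjusted p = 4.2e-05 from limma). G6pc3, a glucose phosphatase whose loss causes neutropenia, rose from 69.3 ± 3.86 to 108 ± 4.34 (SD, n = 3; log2 difference 0.63, adjusted p = 5.6e-05 from limma), and Dpp7, a dipeptidyl peptidase, rose by 0.64 on the log2 scale (adjusted p = 0.0019 from limma). Calr, the chaperone of the Mpo precursor and the most abundant gene of the list, had a difference of 0.049 (adjusted p = 0.22 from limma), which passed the threshold as a rise of 0.20 with equal sums (adjusted p = 0.0014 from limma). Srp54a fell by 0.91 on the log2 scale (adjusted p = 3.9e-04 from limma), but 72.5% of its 31-base words occur in its near-identical copies, so this value is uncertain.

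Heme synthesis supplies the prosthetic group of myeloperoxidase. Of its 11 genes 6 fell, 4 rose and 1 (Slc25a38) did not pass, with a median of -0.18. Alas1, the first and rate-limiting enzyme outside erythroid cells, fell by 0.61 and Fech, the last enzyme, by 0.68 on the log2 scale (adjusted p = 3.2e-05 and 6.4e-06 from limma). Ppox and Alad rose by 0.47 and 0.19 on the log2 scale (adjusted p = 6.4e-04 and 0.018 from limma). Without Sdc1 KO replicate 1 the rise of Alad no longer passed (adjusted p = 0.056 from limma) and 2 of these genes rose instead of 4. Tmem14c, a porphyrinogen carrier and the highest of the list, fell by 0.18 (adjusted p = 0.0011 from limma), and this fall was 0.028 and did not pass with equal sums (adjusted p = 0.35 from limma). Among the peroxidases and serine proteases of other leukocytes, 8 of 20 listed genes were tested and 8 fell, with a median of -0.84. Gzmb was the highest, at 157 ± 2.07 in WT against 106 ± 1.56 in the other group (SD, n = 3 each; log2 difference -0.56, adjusted p = 7.4e-06 from limma), and Prss34, a basophil protease, had a log2 difference of -1.45 (adjusted p = 9.7e-07 from limma).

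**Figure D5:**
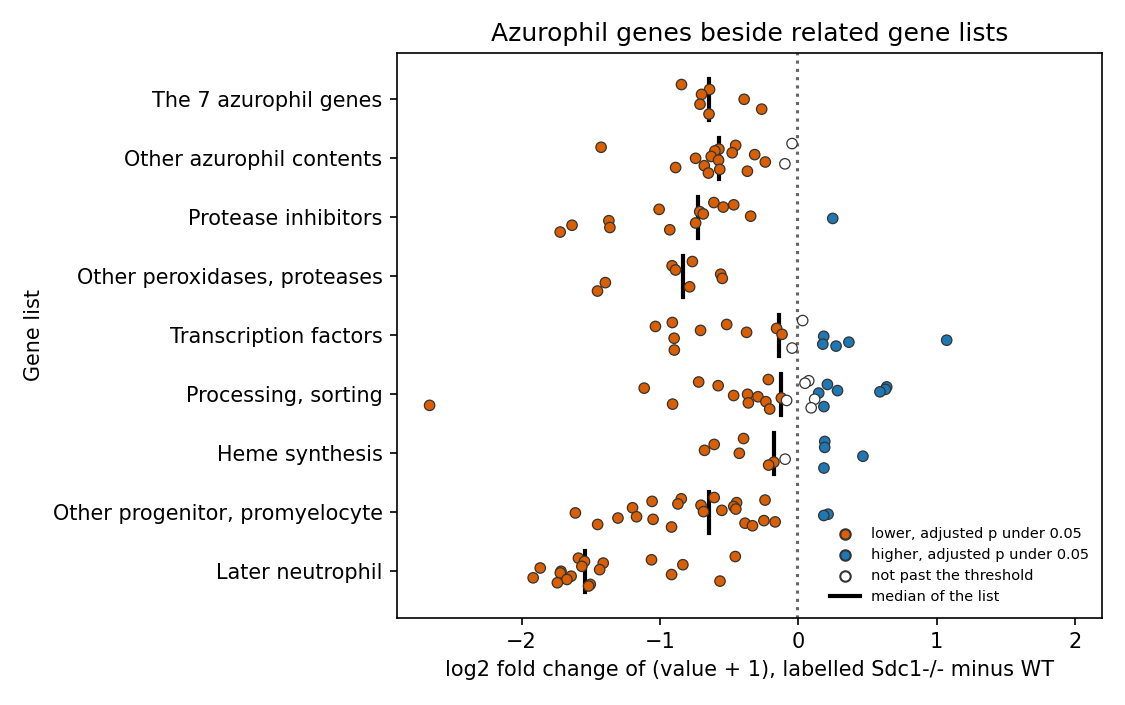
Log2 difference (libraries labelled Sdc1-/- minus WT) of each tested gene in the 7 azurophil genes and 8 related lists, coloured by the test, with the median of each list (black bar) and of all tested genes (dotted line, -0.0097). The 7 granule genes have a median of -0.65 and later neutrophil genes one of -1.55, and the leftmost point of the processing list is Srp54b, at -2.67, which shares most of its sequence with Srp54a.

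Markers of neighbouring cell states moved with the granule genes. Of 25 other genes high in granulocyte-monocyte progenitors and promyelocytes, 24 were tested, 22 fell and 2 rose (Igfbp4 and Kit), with a median of -0.65. Hp (haptoglobin) had a log2 difference of -1.61 (adjusted p = 1.4e-06 from limma). Plac8, the highest of these genes, fell by 0.17 (adjusted p = 0.0061 from limma), and with equal sums its difference of -0.019 did not pass (adjusted p = 0.67 from limma). Igfbp4 rose by 0.22 and Kit, the stem cell factor receptor, by 0.18 on the log2 scale (adjusted p = 0.0049 and 0.018 from limma), and Kit did not pass without WT replicate 1, WT replicate 3 or Sdc1 KO replicate 2 (adjusted p = 0.055, 0.060 and 0.056 from limma).

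Of 20 genes of later neutrophils, among them specific granule proteins, 19 were tested and 19 fell, with a median of -1.55. Their summed level lay between 14806 and 15891 in the WT libraries and between 5504 and 5682 in the libraries labelled Sdc1-/-, most of it from S100a8 (5279 ± 394 and 1859 ± 85.4, SD, n = 3) and S100a9 (4031 ± 132 and 1408 ± 8.27, SD, n = 3). The transcripts of 2 proteins targeted by the lineage antibodies, Itgam (CD11b) and Ly6g (Gr1), were at 23.6 and 8.77 in WT and at 7.33 and 1.97 in the libraries labelled Sdc1-/-, and neither was absent. Of the 31-base words of Itgam, 68.3% also occur in other genes, mostly Gm49368, so its value is uncertain. The part of these cells in the lower granule mRNA was not tested. Set against specific granule genes of the same library, the log2 ratio to Ltf (lactoferrin) was higher by 1.32 for Mpo and by 1.02 for Elane in the libraries labelled Sdc1-/- (difference of means, n = 3 per group). Against Camp, the cathelicidin gene and the one with the smallest fall in that list (-0.46), the log2 ratio of Mpo differed by 0.064 and that of Elane by -0.24. The groups did not overlap in any of these 4 ratios, which were chosen after the values had been seen (two-sided exact permutation test, p = 0.1 in each, the lowest value 3 against 3 libraries can give).

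Other lineages showed the same direction in part. Of 12 tested genes of monocytes and macrophages 10 fell and 1 rose, with a summed level of 87.5 to 89.9 in WT and 41.5 to 44.8 in the libraries labelled Sdc1-/-, and Adgre1 and Ccr2 were the highest, with log2 differences of -1.06 and -1.43 (adjusted p = 1.1e-05 and 9.2e-06 from limma). Of 12 tested genes of mast cells, basophils and eosinophils 11 fell, with Prg2 highest (655 ± 14.8 and 303 ± 2.83, SD, n = 3), and Gata2 did not pass (adjusted p = 0.44 from limma) but rose by 0.20 on the log2 scale with equal sums (adjusted p = 0.015 from limma). Of 12 erythroid genes 9 fell and 3 rose, with the beta-globins Hbb-bt and Hbb-bs highest, and these share sequence with each other. Megakaryocyte genes were split, 5 falling and 3 rising of 8, with Itga2b falling by 0.26 and Pf4 rising by 0.20 on the log2 scale (adjusted p = 0.0046 and 0.0042 from limma). With equal sums 3 of them fell, and Itga2b did not pass (adjusted p = 0.094 from limma).

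Lymphoid and stromal markers were low. The summed level of 13 T and NK cell genes was 15.1 to 17.8 in WT and 23.0 to 23.8 in the libraries labelled Sdc1-/-, with Lck and Klrb1c the highest, while Cd3e was listed at 0 in each WT library. Lck rose (log2 difference 0.95, adjusted p = 1.7e-04 from limma), and 3 of the 13 were tested. The 9 B cell genes summed to at most 4.30, with Cd79b highest. Of 9 stromal and endothelial genes 3 were tested, Col1a2 rose and Pecam1 fell (log2 differences 0.29 and -0.23, adjusted p = 3.4e-04 and 0.0028 from limma; for Pecam1 0.099 with equal sums), and their summed level was 40.3 to 43.5 in all libraries. The part of these cells in the granule gene differences was not tested.

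Outside the 7 genes, the pattern most like that of Ms4a3, the highest of the set, was sought over the 6 libraries among the 8959 other genes whose mean was 5 or more, as the root mean square difference of centred log2 values. The nearest were Car1 (0.018), Serpinb1a (0.023), Lyn (0.026), Serpina3g (0.029) and Gsta4 (0.029). Car1 is one of the 12 erythroid genes listed. The log2 differences of these genes lay between -0.74 (Car1) and -0.68 (Lyn), near the -0.71 of Ms4a3. Of the granule genes, Ctsg (0.060) and Elane (0.070) were nearest to Ms4a3, while Mpo (0.17) and Prss57 (0.23) were the most distant.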

How the data were processed

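RNA-seq libraries of Lin- bcCML cells, 3 labelled WT and 3 labelled Sdc1-/-, were grouped by their labels. The authors quantified reads with kallisto and tested with sleuth 0.30.0 on mm10 (submitters' processing notes), and deposited per gene and library a signal that they name TPM and that had been rescaled between libraries. Depth is unknown and no counting interval can be given. A second deposited table holds the authors' own comparison (p-values, q-values, effect sizes and variances) and was not used. Of the 36083 gene IDs, 35454 matched a symbol. Genes whose mean was 1 or more (12155) were tested with limma 3.58.1 (R 4.3.3) on log2(value + 1), group as the only term, with a variance trend, two-sided, with Benjamini-Hochberg adjustment at 0.05. The design had assumed unscaled TPM, and the same test was kept. Differences on this scale understate the change of low genes. Python 3.11.15 with scipy 1.17.1, pandas 2.3.3, numpy 2.4.6 and matplotlib 3.10.9 was used elsewhere.

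The 7 genes and all lists were chosen with earlier results of these data known, and no list was tested as a set. Named from each list were its highest gene and, among genes past the threshold whose mean was 5 or more, the 2 largest rises and the 2 largest falls (from marker lists of other cell types, the 2 highest genes). One gene that this rule names is not reported here. Also named were Sdc1, 2 neighbours on either side of each gene, the 5 genes most like Ms4a3, and genes with a known role; Srp54b and others outside these rules were named after their values were seen. The fit was tested on simulated data. In all, 14 alternatives were run: pseudocounts of 0.1 and 0.5, a minimum mean of none and of 5, equal sums, quantile normalization, no variance trend, a replicate block, and each of 6 libraries left out.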

Additional observations from a re-analysis of the deposited data

How the results depend on the processing

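All 7 granule genes kept their direction under the 14 alternatives, and each passed the threshold under each of them except Prss57 with equal library sums (-0.12, adjusted p = 0.057 from limma). Leaving out each library in turn, the log2 differences ranged from -0.41 to -0.36 for Mpo, -0.74 to -0.67 for Elane, -0.71 to -0.59 for Prtn3, -0.66 to -0.60 for Ctsg, -0.30 to -0.23 for Prss57, -0.73 to -0.69 for Ms4a3 and -0.88 to -0.79 for Ctsc. Over all genes, 2380 fell with equal sums instead of 3810, and 5286 rose instead of 3564. The cause was not tested. The labels give both groups the numbers 1 to 3. The correlations of deviations from the group means were 0.15, -0.0083 and 0.018 for the numbers 1, 2 and 3, and WT 1 correlated best with number 1, but WT 2 and WT 3 both with number 3, so the samples share only a number. With the replicate block, 3653 genes rose and 3971 fell, and all 7 granule genes passed. Among other named genes, Klrb1c (0.0074) and Cd79b (0.024) changed sign with equal sums, and Gata2 (-0.0067) and Cd79b (0.0023) without WT replicate 2. Leaving out each library in turn, Gata2 ranged from -0.0067 to 0.094 and Cd79b from -0.14 to 0.0023. None of these values passed the test.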

Other observations

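Stem and progenitor genes moved in both directions. Of 12 listed 11 were tested, 6 rose, 4 fell and 1 did not pass, with a median log2 difference of 0.18 against -0.0097 over all genes (limma on log2(value + 1), adjusted p under 0.05). With equal library sums 2 fell. Mecom, a transcription factor of hematopoietic stem cells, rose from 5.18 ± 0.19 to 8.24 ± 0.36 (SD, n = 3; log2 difference 0.58, adjusted p = 1.0e-04 from limma). Meis1 rose from 13.1 ± 0.35 to 28.6 ± 1.08 (SD, n = 3). Hoxa9, the highest of the list, rose by 0.18 on the log2 scale (adjusted p = 0.017 from limma), but the NUP98-HOXA9 fusion could give reads to it. It did not pass without WT replicate 3, Sdc1 KO replicate 1 or Sdc1 KO replicate 2 (adjusted p = 0.054, 0.051 and 0.053 from limma). Ly6a, which encodes Sca-1, fell from 8.82 ± 1.09 to 2.82 ± 0.22, and Flt3, a receptor of multipotent and lymphoid-primed progenitors, from 13.2 ± 0.51 to 7.71 ± 0.31 (SD, n = 3; adjusted p = 2.7e-05 and 3.2e-05 from limma).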
